A study of Brassica napus with 3 samples.

Results

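Chromosome A09 of rapeseed (Brassica napus) carried 5412 of the 62949 binding peaks of BnaC3.LFY in the deposited list, taken as every peak whose sequence name was that of A09 in the Westar v0 assembly. The peaks with midpoints from 20 to 33 Mb, called the middle stretch, were set against those of both flanks. The middle stretch held 1657 peaks over 13 Mb, the left flank 1534 peaks over 20 Mb, and the right flank 2221 peaks over 34.8 Mb, up to the end of the last peak. The limits of the stretch were proposed with its crowding already known, so its peak density is given as a description. At the lower limit the first peak inside, at 20083394-20083797, had a fold of 12.2 and the last outside, at 19943508-19943912, a fold of 12.8. At the upper limit the last peak inside, at 32816267-32816508, had a fold of 4.21 and the first outside, at 33328199-33328495, a fold of 7.15.

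LEAFY is a plant transcription factor that gives young primordia at the shoot apex the identity of flowers. It binds DNA as a dimer, and in Arabidopsis it activates floral organ identity genes such as APETALA1 and AGAMOUS. BnaC3.LFY is the rapeseed copy named for chromosome C03. In DNA affinity purification sequencing (DAP-seq), a transcription factor made outside the plant retains fragments of naked genomic DNA, which are then sequenced, so the assay reads the affinity of the protein for sequence without chromatin. A peak is an interval where the retained reads pile up over a local background.

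The tested libraries were 2 DAP replicates of BnaC3.LFY, and the control was 1 input library. All were made from genomic DNA of plants whose tissue the labels give both as shoot apices and as inflorescence. Cultivar, plant age and treatment are not given in the labels, and the series title names ChIP-Seq where the sample titles name DAP. The authors brought the libraries together in 1 peak list, so no value below has an error between libraries, the depth of each library is unknown, and no test over replicates was possible. Spread is given between bins of 1 Mb, and intervals on shares, medians and ratios are 95% intervals that cover counting error only. Neighbouring peaks share reads, background and possibly sequence, so they are not replicates. Sequences of the peaks and the genes beside them were not analysed here.

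The middle stretch of A09 held peaks at 1.86 times the density of the flanks, and the excess was uneven along it. It carried 127 peaks per Mb, against 76.7 per Mb on the left flank, 63.8 per Mb on the right flank and 68.5 per Mb over both flanks. The 95% interval of the ratio of the middle to both flanks was 1.76 to 1.97. Peaks covered 7.52% of the bases of the middle stretch, against 2.97% on the left and 2.81% on the right flank. Over its 13 bins of 1 Mb the count was 127 ± 50.9 (SD), with a lowest of 42 in the bin from 20 Mb, a median of 133 and a highest of 210 in the bin from 23 Mb. The 20 bins of the left flank held 76.7 ± 14.7 peaks (SD) and ranged from 35 to 99. The bins of the middle stretch and of the left flank therefore overlapped, through the bins from 20, 26 and 32 Mb, which held 42, 46 and 71 peaks. The other 10 bins of the middle stretch held at least 105 peaks, above every bin of the left flank.

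**Figure D1:**
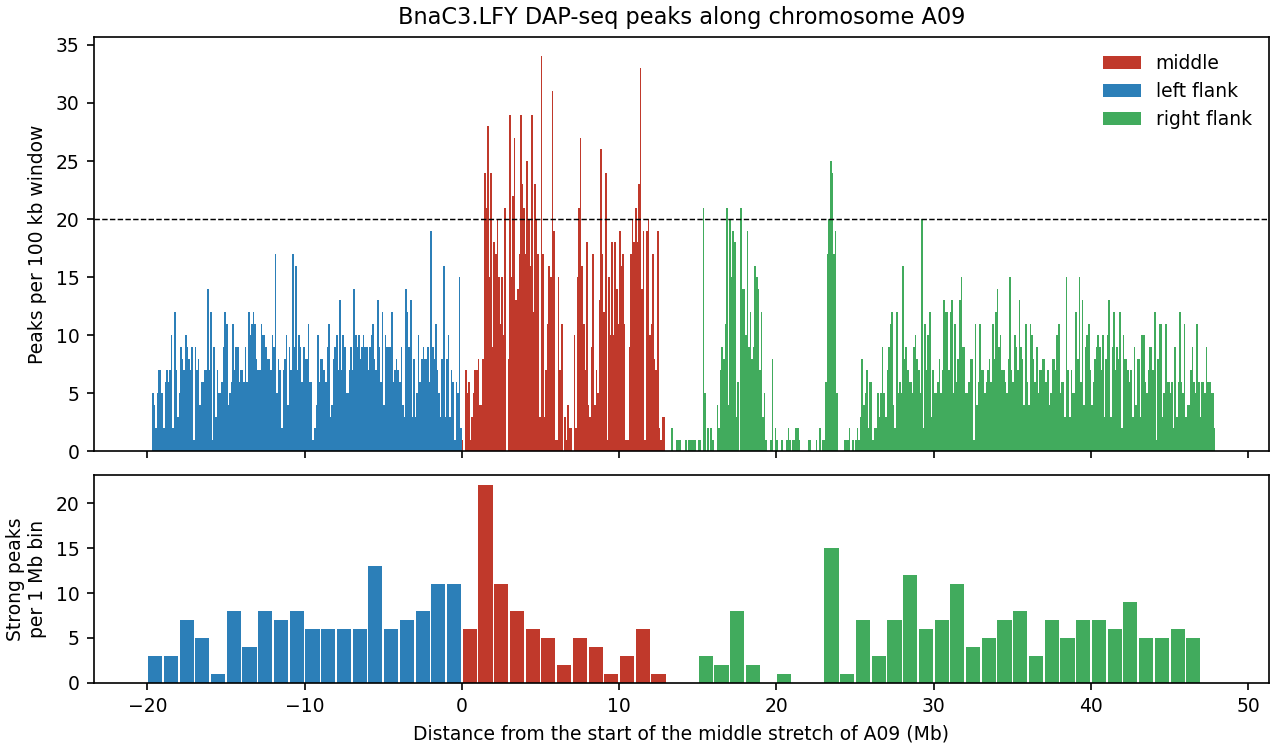
Peaks per 100 kb window (upper panel) and strong peaks per 1 Mb bin (lower panel) along A09, plotted against the distance in Mb from the start of the middle stretch, with the middle stretch, left flank and right flank in separate colours. The dashed line marks 20 peaks, which 28 windows of the middle stretch reached, and the right flank begins with a sparse part broken by islands of crowded windows.

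The right flank was not uniform, and a division of it was made after its values were seen. From 33 to 46 Mb it held 589 peaks, or 45.3 per Mb, and from 46 Mb to its end it held 1632, or 74.8 per Mb. In the near part the bins ranged from 5 to 134 peaks. The bins from 33, 34, 40, 42 and 44 Mb, held 5 or 6 peaks each, while those from 37, 38 and 43 Mb held 130, 119 and 134. In the far part the 21 full bins held 75.3 ± 13.1 peaks (SD), close to the left flank, and ranged from 41 to 101. The middle stretch was close to the near part in breadth and close pairs but not in spread: 19.98% of the peaks of the middle were at least 800 bp wide, against 18.7% in the near part, and 41.4% had a neighbour within 500 bp, against 37.2% in the near part. The median count per 100 kb window, however, was 13 in the middle and 1 in the near part.

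The middle stretch stood highest over the flanks in density ratio at folds of 6 to 15. At folds below 4 and from 20 upwards the counting intervals of that ratio spanned equal density. Strength is the authors' fold enrichment of a peak over its local background. Peaks with a fold of 6 to 8 stood at 30.4 per Mb in the middle, against 13.2 on the left and 12.7 on the right flank, a ratio of 2.36 to both flanks (2.09 to 2.67). The ratio was 2.38 (2.02 to 2.81) for folds of 8 to 10 and 2.41 (2.05 to 2.84) for folds of 10 to 15. It was smaller at both ends of the scale. For folds below 4 it was 1.16 (0.955 to 1.41), for folds of 4 to 6 it was 1.71 (1.56 to 1.88), and for folds of 15 to 20 it was 1.47 (1.11 to 1.95). In peaks per Mb, however, the difference was largest for folds of 4 to 6, at 44.92 in the middle and 26.25 on both flanks. For folds of 20 to 30 the middle held 2.39 peaks per Mb and the flanks 2.21, a ratio of 1.08 (0.730 to 1.60). From a fold of 30 upwards there were 8 peaks in the middle and 52 on the flanks, a ratio of 0.649 (0.313 to 1.34). These intervals cover counting error only, so they cannot decide whether the densities differ in these last classes.

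**Figure D2:**
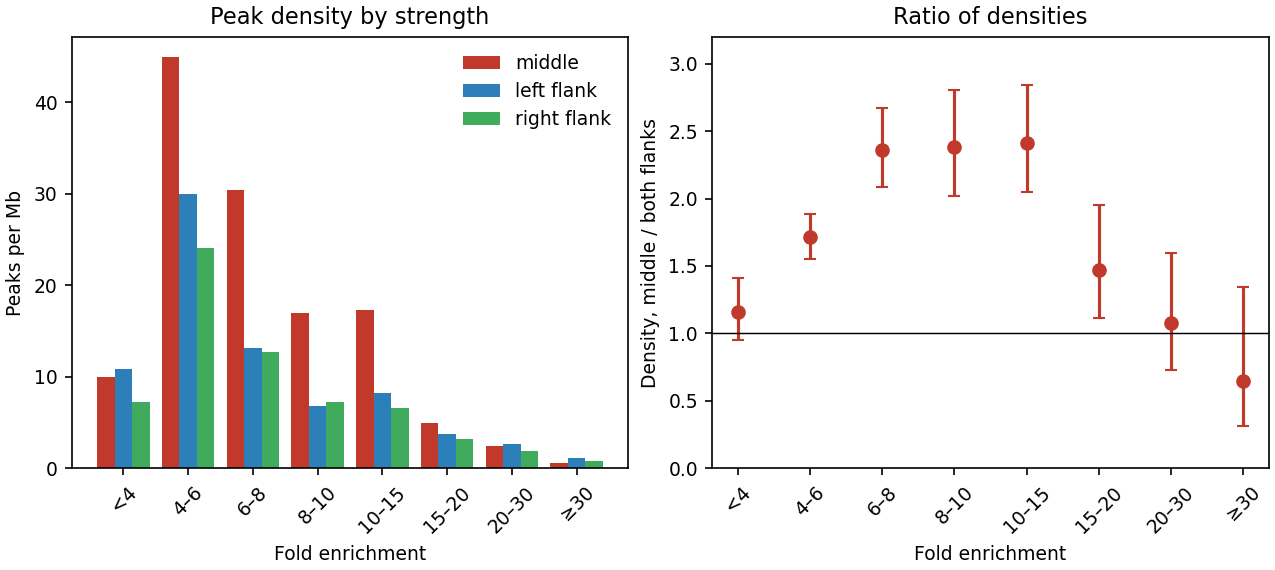
Left, peaks per Mb by class of fold enrichment in the middle stretch, the left flank and the right flank. Right, the density of the middle stretch over that of both flanks in each class, with 95% intervals from counting error, which peaks at 2.41 for folds of 10 to 15 and stands at 1.08 for folds of 20 to 30.

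The fold values of the middle stretch, like those of the near part of the right flank, had a higher low end and a lower high end than the other parts of A09. The 10th percentile of fold was 4.20 in the middle, against 3.79 on the left and 3.93 on the right flank, whereas the 90th percentile was 12.8, against 14.98 on the left and 14.4 on the right flank. The median fold was 6.48 in the middle and 5.94 over both flanks, a difference of 0.545 (0.340 to 0.741). The mean fold ran the other way, at 7.78 in the middle and 7.99 on the flanks. Over bins of 1 Mb the median fold was 6.43 ± 0.478 (SD, 13 bins) in the middle, against 5.81 ± 0.380 (SD, 20 bins) on the left flank. Peaks with a fold below 4 made up 7.79% (6.59 to 9.18%) of the middle, against 12.5% (11.5 to 13.6%) of the flanks and 12% of the whole list. The near part of the right flank had a 10th percentile of 4.29, a median of 6.56, a 90th percentile of 13.6 and 5.94% (4.30 to 8.15%) of its peaks below a fold of 4.

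Strong peaks, the 10% of the whole list with the highest fold (at least 16.1), numbered 80 in the middle stretch, 134 on the left flank and 178 on the right. They were 4.83% of the peaks of the middle (3.90 to 5.97%) and 8.31% of those of both flanks (7.47 to 9.23%), a difference of -3.48 percentage points (-4.79 to -2.06), and both shares lie under the 10% of the whole list. Per Mb they stood at 6.15 in the middle, against 6.70 on the left and 5.11 on the right flank, a ratio to both flanks of 1.08 (0.846 to 1.38) whose interval includes 1. Of the 80 strong peaks of the middle, 39 lay between 20 and 23 Mb, at 13 per Mb, and 41 between 23 and 33 Mb, at 4.10 per Mb. The bin from 21 Mb alone held 22 strong peaks, more than any bin of either flank (13 at most on the left and 15 at most on the right). The bin from 23 Mb, which held most peaks, had 8.

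The highest folds of the middle stretch stood below those of the flanks. The flanks held 3755 peaks against 1657 in the middle, and a larger set can reach higher extremes through its number alone. In the middle the strongest peak, at 31397625-31398559, had a fold of 42.0, and 15 peaks of A09 stood above it. The next of the middle were at 22516137-22516701 with a fold of 40.8 and at 24313094-24313631 with a fold of 38.6. Peaks at 21364088-21364842 and 20448897-20449803 had folds of 37.96 and 37.94. A peak at 27436545-27437645 had a fold of 35.2 and lay 255 bp from its next neighbour. Those at 31551957-31552592 and 21563601-21564083 had folds of 35.0 and 30.2. Of these 8, 4 lay between 20 and 23 Mb.

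The left flank held peaks at 10949498-10950074 with a fold of 61.6, at 16497252-16497903 with a fold of 54.8, at 5542207-5542816 with a fold of 52.7 and at 8014778-8015324 with a fold of 49.6. On the right flank a peak at 51073840-51074455 reached 62.2-fold, the highest value on A09. It was followed there by peaks at 61062681-61063253, 44589732-44590259 and 45405992-45406709, with folds of 48.9, 48.0 and 47.6. Strong peaks of the middle had their nearest neighbour at a median of 1569 bp, against 3135.5 bp on the left and 2823 bp on the right flank. A neighbour within 500 bp was present for 26.3% of them, against 9.70% on the left and 14.6% on the right flank. Over all peaks the share was 41.4% in the middle, 9.78% on the left and 16.1% on the right flank. Strong peaks of the middle thus had a close neighbour less often than its peaks as a whole. Between 20 and 23 Mb lay 48.75% of these strong peaks, against 19.43% of all peaks of the middle. The part of position in the lower share was not tested.

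Neighbouring peaks of the middle stretch lay close together, in clusters separated by longer distances. The distance from the edge of a peak to the next had a median of 1613 bp in the middle (quartiles 501 and 7606 bp), against 7674.5 bp on the left flank and 7022 bp on the right. The mean distance was 7403 bp in the middle and 12502 bp on the left flank, so the median was 0.218 of the mean in the middle and 0.614 of it on the left flank. On the right flank that share was 0.122 in the near part and 0.632 in the far part. The middle thus mixed short distances with long ones, as did the near part of the right flank. Of the distances of the middle 10 were at least 100 kb, against 5 on the left flank and 37 on the right, 35 of them in the near part.

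A neighbour within 500 bp was present for 41.4% of the peaks of the middle (39.1 to 43.8%), against 9.78% on the left flank (8.39 to 11.4%), 16.1% on the right flank (14.6 to 17.7%) and 9.87% in the whole list. The difference from both flanks was 27.9 percentage points (25.3 to 30.5). Over bins of the middle this share was 37.9 ± 15.6% (SD, 13 bins), with 4.76% in the lowest and 56.2% in the highest, while the 20 bins of the left flank gave 9.48 ± 6.76% and reached 27.4%. Among neighbours less than 2 kb apart, the centres were a median of 1202 bp apart in the middle (quartiles 911 and 1592 bp), against 1314 bp on the left and 1297 bp on the right flank. The most frequent class of 100 bp in the middle, 1000 to 1100 bp, held 92 of 884 such pairs (10.4%), and on the left and right flanks the most frequent classes were 600 to 700 bp and 800 to 900 bp.

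**Figure D3:**
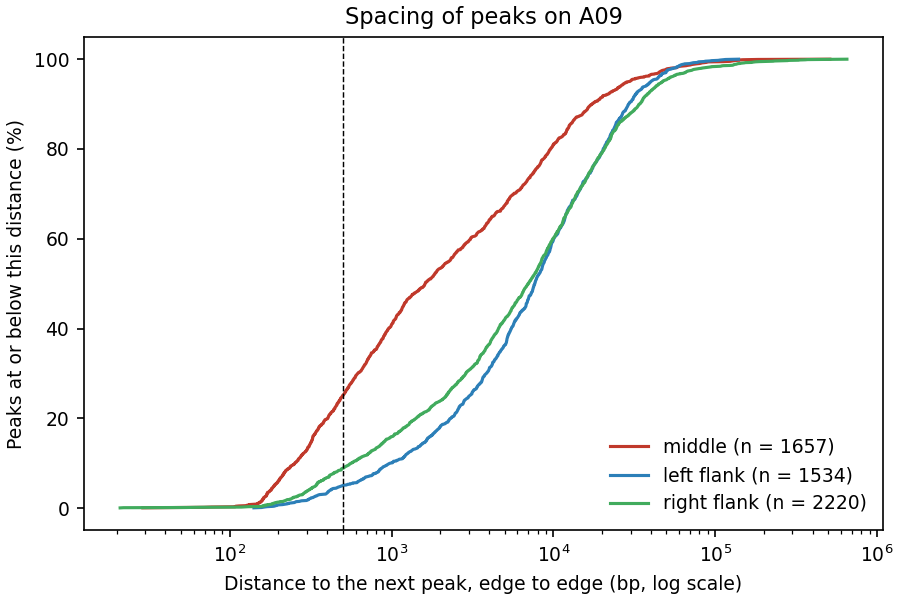
Cumulative share of peaks, in percent, by the distance in bp from their edge to that of the next peak on a log scale, for the middle stretch, the left flank and the right flank. At 500 bp (dashed line) the middle stretch stands at 24.98%, the left flank at 5.02% and the right flank at 8.87%.

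Close peaks of the middle formed chains, in which each edge lay within 500 bp of the next. Chains of 3 or more peaks numbered 89 in the middle, with 320 peaks or 19.3% of its peaks. There were 4 such chains on the left flank and 24 on the right, of which 22 lay in the near part. They held 0.782% of the peaks of the left flank, 13.4% of those of the near part and 0.368% of those of the far part. The near part thus shared the trait. Chains of 4 or more numbered 39 in the middle, 0 on the left flank and 6 on the right. The longest of the middle held 7 peaks over 6096 bp, at 30943352-30949447, with folds of 3.26 to 8.97 and 77.0% of its bases in peaks. On the right flank the longest also held 7 peaks, at 43419910-43426119, with folds of 3.98 to 10.1, while on the left flank 4 chains of 3 were the longest. Of the 13 chains of 5 or more peaks on A09, 10 lay in the middle, and among the 73 peaks of these chains 1 was strong, with a fold of 16.5.

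In the middle, peaks with a neighbour within 500 bp had nearly the same median fold as peaks with none within 5 kb, at 6.58 and 6.498, but were wider, at 506.5 and 390 bp. They were strong in 3.06% (2.01 to 4.63%) and 5.83% (3.36 to 9.91%) of cases, with intervals that overlap. Neighbours within 500 bp of each other were about as unlike in strength as distant ones in the middle: their folds differed by a median of 0.543 on the log2 scale in the middle (414 pairs), against 0.565 between neighbours more than 5 kb apart (540 pairs). On the right flank the values were 0.485 (197 pairs) and 0.637 (1289 pairs), and on the left flank 0.631 (77 pairs) and 0.687 (978 pairs).

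Peaks of the middle stretch were broad. Their median width was 447 bp (quartiles 335 and 698 bp), against 359 bp on the left flank (quartiles 292 and 435 bp) and 371 bp on the right (quartiles 302 and 469 bp), and the difference from both flanks was 82 bp (69.0 to 98.3 bp). Over bins the median width was 442 ± 41.7 bp (SD) in the middle, with 357 bp in the lowest bin, against 358 ± 11.3 bp (SD) on the left flank, with 380 bp in the highest. A width of at least 800 bp was reached by 331 peaks of the middle, or 19.98% (18.1 to 21.97%), against 1.83% on the left flank (1.27 to 2.63%), 5.85% on the right (4.95 to 6.91%) and 3.17% of the whole list. On the right flank 110 of the 130 such peaks lay in the near part. The widest peak of the middle, at 24266205-24270080, measured 3876 bp and had a fold of 12.0. The other 3 of the 4 widest on A09 were at 35330957-35336663 (5707 bp, fold 9.59), 37287037-37291723 (4687 bp, fold 9.49) and 43588072-43591368 (3297 bp, fold 22.0) on the right flank, all in its near part.

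Breadth and strength went together less in the middle than on the left flank and the far part of the right, and about as loosely in the near part of the right. In the middle the median fold was 4.79 below 300 bp, 6.25 from 300 to below 400 bp, 7.39 from 400 to below 500 bp, 7.49 from 500 to below 800 bp and 8.33 from 800 bp upwards. On the left flank it was 4.51, 5.87, 9.38, 11.4 and 10.5 in the same classes. The narrow classes were thus slightly stronger and the wide classes weaker in the middle than on the left flank. Of peaks of 500 to below 800 bp, 7.69% (5.41 to 10.8%) were strong in the middle, against 36.0% (29.7 to 42.9%) on the left flank, 10.1% (5.98 to 16.5%) in the near part of the right flank, 31.1% (25.1 to 37.7%) in its far part and 36.7% on the other 18 chromosomes. From 400 to below 500 bp the shares were 8.80% (6.03 to 12.7%) in the middle and 18.5% (14.6 to 23.3%) on the left flank. Across peaks, Spearman's correlation of width and fold was 0.481 in the middle (n = 1657), against 0.647 on the left flank (n = 1534), 0.480 in the near part of the right flank (n = 589) and 0.635 in its far part (n = 1632). Both values of a peak come from the same pileup, and the correlations are descriptions only.

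**Figure D4:**
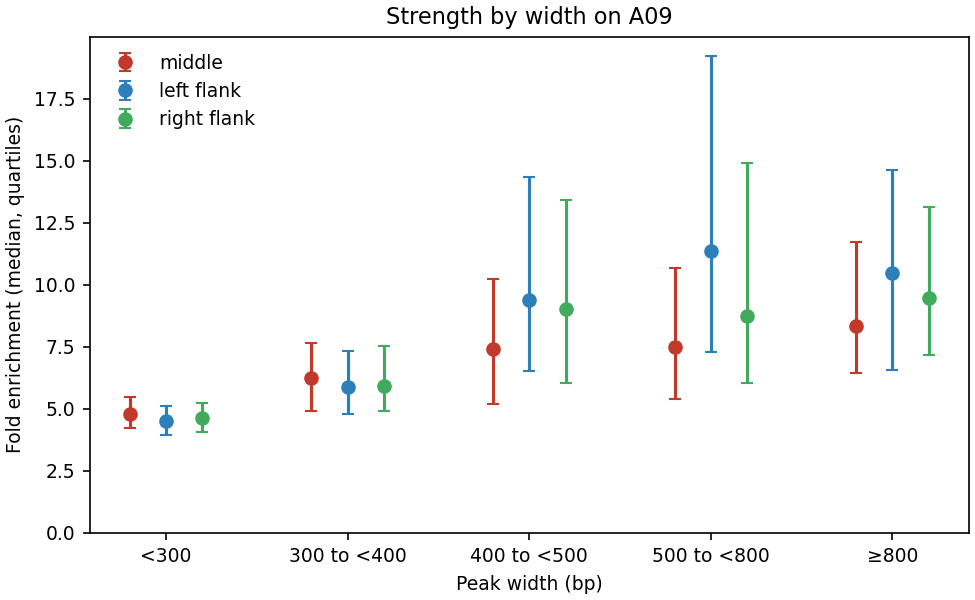
Fold enrichment by class of peak width in bp, as the median (points) with the quartiles (bars), for the middle stretch, left flank and right flank. Medians stay at 7.39 to 8.33 in the middle from 400 bp upwards, whereas they climb to 11.4 on the left flank at 500 to below 800 bp.

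Some of these differences moved with a sign that the authors' values were averages. Averaging over more than 1 line was read from fractional scores or from values with more than 6 significant digits. This sign was present in 75.1% (73.0 to 77.2%) of the peaks of the middle, against 67.0% (65.4 to 68.4%) of both flanks and 66.6% of the whole list, and in 76.2% (72.6 to 79.5%) of the near part of the right flank taken alone. Scores that are a whole number divided by 3 and not whole themselves, which a mean of 2 whole numbers cannot give, were found in 62 peaks of the middle (3.74%), against 6 on the left flank (0.391%), 22 on the right flank (0.991%), 17 of them in its near part (2.89% of the peaks there), and 287 in the whole list (0.456%). Among peaks with the sign the median fold was 7.38 in the middle and 7.31 on both flanks. This difference of 0.0770 (-0.237 to 0.330) was smaller than the 0.545 over all peaks. Their median width was 512 bp in the middle, against 403 bp on the flanks, and their share of strong peaks was 6.27% and 11.6%. Among peaks without the sign the median widths were 292 and 283 bp, a difference of 9 bp (-2.66 to 16.6 bp). A neighbour within 500 bp was present for 42.1% of the peaks of the middle with the sign, against 15.1% on the flanks, and for 39.3% of those without it, against 10.3%.

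For peaks without the sign, a whole-number pileup and its local background were sought that give both the fold and the -log10 p of the authors. They were found for 214 of 412 such peaks in the middle, 341 of 549 on the left flank and 434 of 692 on the right. The background had a median of 1.41 reads in the middle (quartiles 1.38 and 1.91), against 2.31 reads on the left flank (1.91 and 2.86) and 2.13 on the right (1.87 and 2.86). The pileup had a median of 11.5 reads in the middle, against 14 on either flank. Both medians were thus lower in the middle, among the peaks for which a pileup was found. Peaks without the sign were the weaker ones, with a median fold of 4.79 in the middle and 4.58 on both flanks. With the sign it was 7.38 and 7.31, and the background of those peaks is not known. Whether the pileups and backgrounds found are the true ones was not tested. The part of the background in the number of peaks was not tested either.

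In windows of 100 kb, crowding and emptiness stood side by side in the middle stretch. Of its 130 windows, 28 held at least 20 peaks, 33 held 15 to 19, 26 held 1 to 4 and 5 were empty, while only 19 held 5 to 9 peaks, the class that took 123 of the 200 windows of the left flank. On the left flank 0 windows reached 20 peaks and the highest count was 19. The right flank had 8 such windows, 7 of them between 33 and 46 Mb, and 40 empty ones, all 40 between 33 and 46 Mb. The variance of the counts over their mean was 5.69 in the middle, against 1.39 on the left flank, 9.33 in the near part and 1.36 in the far part of the right flank. The crowded windows of the middle were scattered over 19 runs of 1 to 3 adjacent windows. The longest runs, from 21.4 to 21.7 Mb and from 23.7 to 24.0 Mb, held 73 peaks each.

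The 6 most crowded windows of A09 all lay in the middle. They began at 25, 31.3, 25.7, 23, 23.7 and 24.4 Mb and held 34, 33, 31, 29, 29 and 29 peaks. The windows before and after the first held 3 and 17 peaks. Windows next to a crowded one had a median of 17 peaks in the middle, over a range of 0 to 33. The window from 25 Mb was covered by peaks over 22.0% of its bases, and 24 of its 34 peaks had a neighbour within 500 bp. Its peaks had a median fold of 6.93 and a median width of 476 bp, and 2 were strong, at 25042113-25042545 with a fold of 16.5 and at 25085868-25087454 with a fold of 17.4. The weakest, at 25072466-25072858, had a fold of 2.69. Its first 3 peaks, at 25007334-25007724, 25012903-25013416 and 25023855-25024238, were more than 5 kb apart, whereas its last 12 lay in a row from 25085868 to 25098014, which was followed by 16896 bp without a peak.

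**Figure D5:**
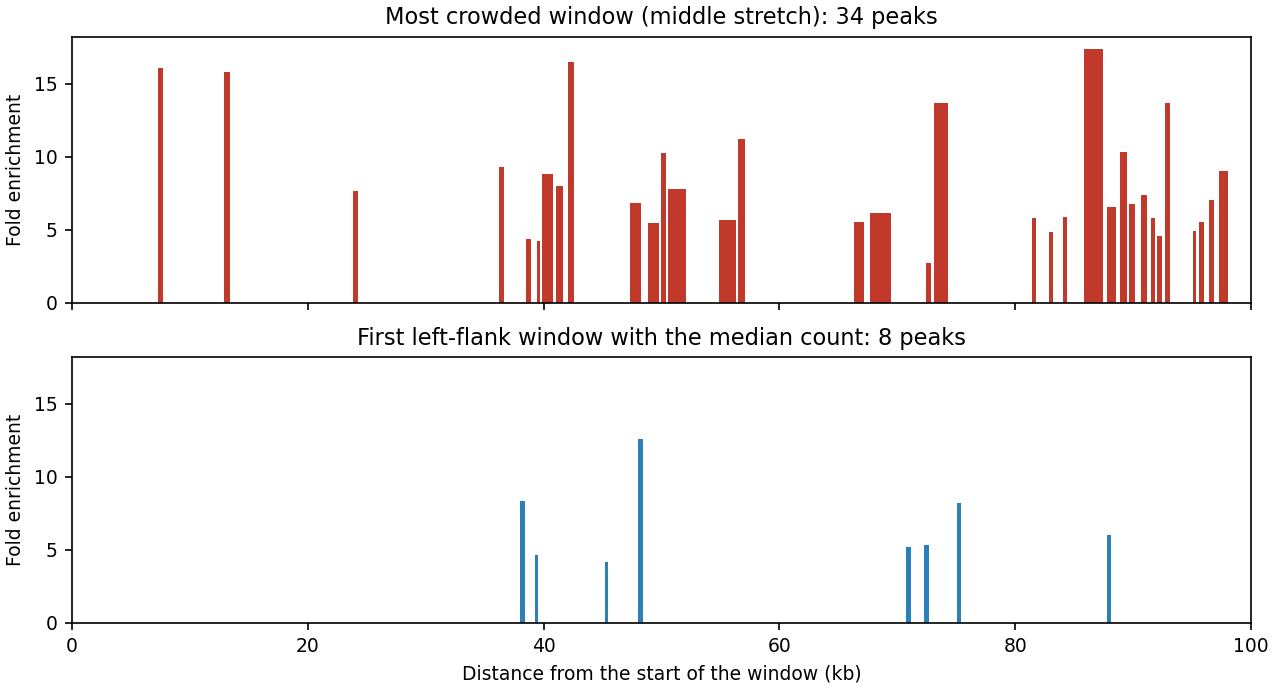
Peaks of the most crowded window of A09 (34 peaks, upper panel) and of the first window of the left flank with that flank's median count (8 peaks, lower panel), each drawn at its width against the distance in kb from the window's start and at the height of its fold enrichment. The crowded window is covered over 22.0% of its bases with folds up to 17.4, the other over 2.95% with folds up to 12.6.

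Within the middle as a whole, the crowded windows held more strong peaks per Mb than the other windows. Their share of strong peaks was below that of the sparsest windows, whose strong peaks lay largely near the lower limit. Windows of 20 or more peaks held 12.5 strong peaks per Mb, windows of 10 to 19 held 5 and windows of 1 to 9 held 4.22. A class sorted by its count of peaks can hold more strong peaks through that count alone. The crowded window from 21.5 Mb held 8 strong peaks. On the left flank windows of 10 to 19 and of 1 to 9 peaks held 10.2 and 5.73 per Mb, and on the right flank 10.6 and 4.25. At 10 to 19 peaks per window the middle thus held fewer strong peaks per Mb than either flank. In the middle the share of strong peaks was 5.10% (3.69 to 7.01%) in windows of 20 or more peaks. It was 3.35% (2.30 to 4.86%) in windows of 10 to 19 and 9.74% (6.33 to 14.7%) in windows of 1 to 9. The strong peaks of the sparse windows lay largely near the lower limit. The bin from 20 Mb, with no window above 9 peaks, held 6 strong peaks among 42. The windows from 21 and 21.3 Mb held 3 and 4 among 8 peaks each. The 9.74%, and its place above the share of the crowded windows, thus do not describe the whole stretch. On the left flank windows of 1 to 9 peaks had 8.79% strong peaks, but the 9.74% averages unlike parts of the middle and is no measure of likeness. In close neighbours the sparse windows of the middle were near to those of the left flank, at 8.21% (5.11 to 12.9%) against 7.06% (5.61 to 8.83%). In breadth and median fold they were less alike. Peaks of at least 800 bp made up 7.18% against 1.43%, the median width was 388 against 357.5 bp, and the median fold 6.45 against 5.82. At 10 to 19 peaks per window, however, 44.6% (41.1 to 48.1%) of the peaks of the middle had a close neighbour, against 14.6% (11.9 to 17.7%) on the left flank, and 22.4% against 2.52% were at least 800 bp wide. Within this class the middle held 776 peaks in 52 windows, against 556 in 47 on the left flank.

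The longest interval without a peak that begins in the middle ran from 32816509 to 33328198, 512 kb across its upper limit. It was followed by 184 kb from 26928564 to 27112130 and 148 kb from 26381552 to 26529519. Between peaks of the left flank the longest was 139 kb, from 19943913 to 20083393, at the lower limit of the middle stretch, while the first 312 kb of the chromosome, before its first peak, also held none. On the right flank the longest, 652 kb from 41403930 to 42056018, lay in the near part, as did the next, 522 kb from 43819515 to 44341024. Peaks with no neighbour within 40 kb made up 0.785% of the middle, against 0.391% of the left flank, 6.11% of the near part of the right flank and 0.851% of the whole list. Stretches of unresolved sequence, where no read can map, were not analysed here.

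The densest 13 Mb of every chromosome were then compared, found in the same way on each. The length was that of the middle stretch of A09, proposed with its crowding known, and was not fitted to the other chromosomes. On A09 this stretch began at 19.5 Mb and held 129 peaks per Mb, against 74.5 to 91.4 per Mb on the other 18 chromosomes, of which A06 came highest. Set against the rest of its own chromosome the ratio was 1.90 on A09, against 2.19 on A10, 1.81 on A08 and 1.16 to 1.51 on the other 16. The share of peaks of at least 800 bp was 19.7% on A09, against 14.2% on A06 and 0.929 to 4.70% on the remaining chromosomes. A close neighbour was present for 40.98% of the peaks on A09, against 28.9% on A06 and 5.47 to 14.1% on the remaining chromosomes. Strong peaks made up 5.12% on A09, against 7.16 to 12.99% on the others, but stood at 6.62 per Mb, within the 5.92 to 10.2 per Mb of the others. Crowded windows on A06 and A05 were near to those of A09 in width and close neighbours but not in median fold, which was 6.73 on A09, 7.56 on A06 and 6.02 on A05. The 36 of A09 had a median width of 483 bp, 47.7% close neighbours and 4.90% strong peaks (3.64 to 6.55%), the 10 of A06 had 473 bp, 50.4% and 6.90% (4.29 to 10.9%), and the 9 of A05 had 464 bp, 44.5% and 2.87% (1.32 to 6.12%). With 1 stretch per chromosome, these are descriptions with no test.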

How the data were processed

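The data were 2 DAP-seq libraries of BnaC3.LFY and 1 input library, deposited by the authors as 1 peak list of 7 columns with no header. The tools named in the submitters' processing notes are MACS2, HOMER, Bowtie2, SAMtools and fastp; their versions and settings, and the way replicates were combined, were not given in the sources used here. Each row of the deposited list gives start, end, score, fold enrichment (a ratio to local background), -log10 p and -log10 q. The sequence names carry Westar v0, and positions are printed counted from 1. The depth per library is unknown.

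Peaks of A09 were grouped by midpoint. The members, limits, thresholds and lists were chosen with earlier results of these data known; the limit at 46 Mb was set after seeing the data. Named peaks are the 8 strongest of the middle, the 4 strongest of each flank, the 4 widest, the 5 most crowded windows (with the peaks of the first, given by range, examples and plot; a sixth, tied with the last, was added after its values were seen), and the longest intervals and chains; the peaks at the limits were added. Shares have Wilson intervals, ratios of densities follow from the Wilson interval of the middle's share of peaks, medians have binomial order-statistic intervals, and differences combine these. The pileup search assumed a pseudocount of 1 in both terms and a Poisson model, and accepted a -log10 p met within 0.001. Tested on simulated data, it returned the true pileup in 100% of 485 peaks and accepted 0.206% of those with a moved -log10 p. Whether the Poisson model holds for the deposited peaks, and so whether the pileups found for them are right, was not tested. Alternatives were a stricter q, other limits, window and distance settings, single flanks and joined peaks. Python 3.11.15, pandas 2.3.3, numpy 2.4.6, SciPy 1.17.1 and matplotlib 3.10.9 were used. No sequence was analysed here, since a genome of this build was not used.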

Additional observations from a re-analysis of the deposited data

How the results depend on the processing

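No paired analysis was possible because the list names no library. Of 71 alternatives to 8 results, 36 kept the direction within the counting interval of the value reported, or stayed within a factor of 1.5 for counts of windows. Another 29 moved outside it, and 6 turned the direction, 3 of these within the interval. Counts of windows have no direction, and the other results that moved kept theirs. The density ratio of the middle over both flanks (1.86) stayed above 1 in each alternative: it was 1.65 with limits of 19 to 34 Mb, 2.06 with 21 to 32 Mb, 1.44 without windows of 20 or more peaks, 1.51 with peaks within 500 bp joined, 1.66 against the left and 1.999 against the right flank, 1.68 with 33 to 46 Mb left out, 2.09 among peaks with the averaging sign and 1.40 among those without. The difference in close neighbours (27.9 points) was 9.42 at 200 bp, 38.0 at 1000 bp, 19.4 at a -log10 q of at least 10, 31.6 against the left flank and 32.3 with 33 to 46 Mb left out. The difference in width (82 bp) was 148 bp at a -log10 q of at least 10, 171 bp between means, 109 bp with the sign and 9 bp without it. The difference in median fold (0.545) was 0.0970 at a -log10 q of at least 10, 0.0770 with the sign and 0.211 without it, and it turned to -0.207 between means. The difference in strong share (-3.48 points) was -7.24 at a -log10 q of at least 10, -5.35 with the sign and -1.13 without it. The ratio of strong peaks per Mb (1.08) has no settled direction: it was 0.781 without windows of 20 or more peaks, 0.951 from a fold of 20, 0.918 against the left flank, 0.943 with 33 to 46 Mb left out and 0.422 among peaks without the sign. Crowded windows of the middle (28) were 61 from 15 peaks, 9 with peaks joined and 0 at a -log10 q of at least 10, which leaves fewer peaks. Empty windows on A09 (48) were 94 at that minimum and 97 with at most 1 peak. Where no reason is given, the cause was not tested.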
